A study of Homo sapiens with 16 samples.

Results

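The genes followed here are ATF4, the transcription factor at the centre of the integrated stress response, together with factors and targets tied to it: ATF5, ATF3, DDIT3, ASNS, PCK2, CHAC1, DDIT4, SESN2 and TRIB3. They were chosen by gene symbol, and all 10 were found among the 20531 entries of the count table. RNA came from LNCaP, a human prostate cancer cell line that carries the androgen receptor and responds to androgen. The cells received siRNA at 40 nM, either a nonsense control (NS) or several siRNAs pooled against SLIRP, and were then held in medium without serum with ethanol vehicle or with the androgen dihydrotestosterone (DHT) at 1 nM. The groups are named NS-Veh and NS-1nM DHT for the control and SLIRP-Veh and SLIRP-1nM DHT for the knockdown. Each had 4 libraries, and the NS libraries had been transfected and kept without serum in the same way as the SLIRP siRNA libraries. All libraries came from this line, and the control was 1 siRNA sequence while the other arm was a pool.

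In the integrated stress response, kinases that sense amino acid shortage, unfolded proteins, haem loss or double-stranded RNA phosphorylate the translation factor eIF2alpha, which slows most protein synthesis while the ATF4 message is translated more. ATF4 then switches on genes for amino acid synthesis and uptake, tRNA charging and redox balance, and further factors such as DDIT3, also called CHOP. Faults in mitochondrial gene expression are a known trigger, and SLIRP is an RNA-binding protein found in mitochondria. The study lowered SLIRP to ask how it bears on transcription under androgen, and its libraries serve here to describe these stress response genes. Control of ATF4 by translation is not visible in RNA levels, which are what was measured here.

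Library totals lay between 436353 and 1689708 counts. SLIRP, listed under its older symbol C14orf156, stood at 45.1 to 63.4 CPM (a gene's counts relative to the size of its library, with sizes scaled by TMM) in the 8 NS libraries and at 1.41 to 8.04 CPM in the 8 SLIRP siRNA libraries. All 11 luminal prostate markers of LNCaP were detected, while KRT5 and TP63 (basal cells), DCN and PDGFRA (fibroblasts), PECAM1 and CDH5 (endothelium), PTPRC and CD3E (leukocytes) and CAV1 (prostate lines without androgen receptor) were at 0 counts in every library. The summed luminal markers moved with the siRNA, at 6954 to 8134 CPM in NS and 4745 to 5098 CPM in SLIRP siRNA libraries. FOLH1 (1013 to 2153 CPM over all libraries) and STEAP2 (995 to 3054 CPM) weigh most in this sum. It does not give the direction of each marker. The part of these markers in the results that follow was not tested. In RNA from whole cultures, fewer cells of a kind and less RNA per cell cannot be told apart.

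The promoter letters are shown first, since ASNS and its neighbours are classical targets of ATF4 through a composite word read jointly by ATF4 and C/EBP factors. RefSeq promoter windows of 300 bases (GRCh38.p14, 250 bases before to 50 after a transcript start) matched all 10 genes, in 18 windows. The word TGATGNAA, searched on both strands, was present in windows of 3 of the 10 genes, against 4.46% of the 27305 genes with such windows (1217 genes) and 3.62% of the 35116 windows. Each stretch below holds 60 bases around the word, 5′ to 3′ on the strand of the gene, with the matched letters in capitals.
ATF3 (chr1:212565190-212565249, plus strand, word at position -191 from the start): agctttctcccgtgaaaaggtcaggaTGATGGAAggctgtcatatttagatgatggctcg
ASNS (chr7:97872443-97872502, minus strand, word at position -68): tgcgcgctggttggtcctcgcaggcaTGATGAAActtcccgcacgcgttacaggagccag
CHAC1 (chr15:40953236-40953295, plus strand, word at position -209, read on the opposite strand): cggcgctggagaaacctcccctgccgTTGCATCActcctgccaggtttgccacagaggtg
Of the 3 genes that hold the word, ASNS rose with SLIRP siRNA over the 16 libraries described below. ATF3 did not pass the test there, and CHAC1 had too few counts for it. Within vehicle and within DHT, CHAC1 was tested and did not pass, with log2 fold changes of -0.44 (FDR = 0.524) and -1.09 (FDR = 0.0634). A match is a description of these letters, and the absence of one says only that the letters are not in that window.

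The main comparison set the 8 SLIRP siRNA libraries against the 8 NS libraries by edgeR's quasi-likelihood test, with a false discovery rate (FDR) by Benjamini-Hochberg over all genes tested and a threshold of 0.01. Of the 10 genes, 9 had enough counts to be tested. ASNS, which makes asparagine, rose 1.25-fold with SLIRP siRNA. DDIT4, also called REDD1, a stress-induced brake on the growth kinase complex mTORC1, fell to 0.664 of the NS level. The other 7 did not pass the test, ATF4 itself among them. A call for 2 of 9 stood beside 35.2% called among the 10167 genes tested. The median log2 fold change of the 9 was -0.12, beside -0.01 over all genes tested, and 4 of the 9 were positive.

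Separation between the arms was looked for in the CPM of single libraries. None of the 9 genes tested had 8 SLIRP siRNA libraries that were all above or all below the 8 NS libraries, beside 15.2% of all genes tested. With so few genes, this is not read as a difference from that share. CHAC1, not tested there, overlapped as well. At an unadjusted p under 0.05, 4 of the 9 passed, beside 53.1% of all genes tested. In vehicle alone, 1 of the 10 was called, beside 21.7% of 10684 genes tested, and 1 of the 10 had groups that did not overlap, beside 29.3%. In DHT alone, 2 were called, beside 24.4%, and 3 had groups that did not overlap (DDIT4, ASNS and CHAC1), beside 32.2%. CHAC1 entered the fits within a treatment mainly through its NS libraries, where it was higher, so its separation is not read as support for a fall. In none of these 3 comparisons did the called share of the set exceed that of all genes tested.

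**Figure D1:**
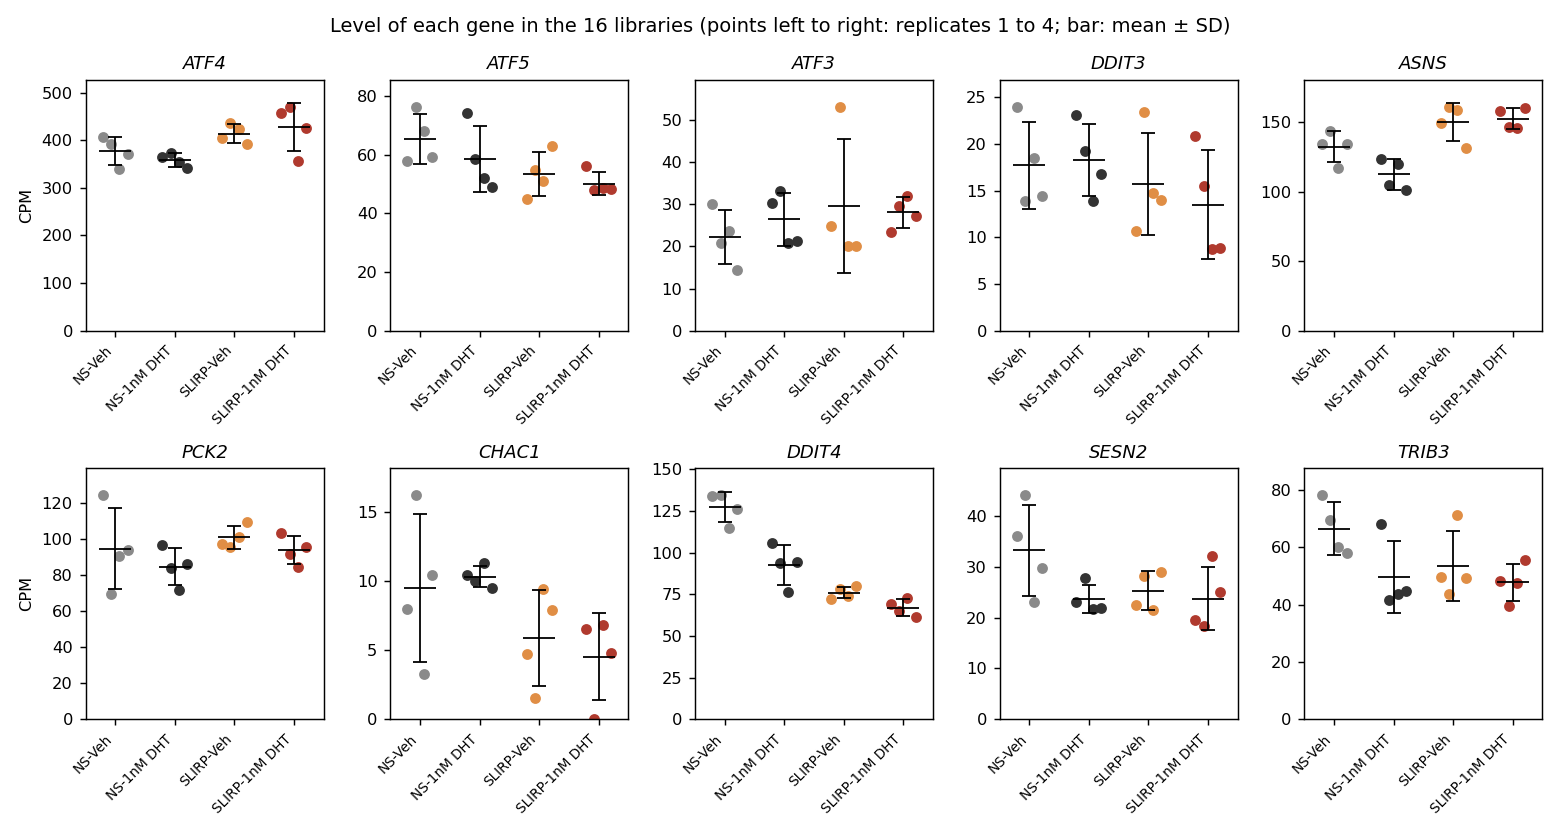
CPM of the 10 genes in each library, 1 panel per gene with its own axis from 0; points are libraries, replicates 1 to 4 from left to right within a group, and the bar gives the mean and SD of the group (n = 4). In the DDIT4 panel all 4 SLIRP-Veh points lie at 72.2 to 79.8 CPM, below all NS-Veh points at 115 to 134 CPM, while the ATF4 groups overlap.

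ATF4 (chr22:39915700-39918688 on hg19, plus strand) had 406, 392, 340 and 372 CPM in replicates 1 to 4 of NS-Veh and 365, 374, 354 and 341 CPM in NS-1nM DHT. The SLIRP-Veh libraries had 405, 437, 424 and 392 CPM, and the SLIRP-1nM DHT libraries 458, 471, 357 and 425 CPM. SLIRP siRNA libraries were mostly higher but the arms overlapped. SLIRP-1nM DHT replicate 3 lay among the NS libraries, and SLIRP-Veh replicates 1 and 4 also lay below NS-Veh replicate 1. The log2 fold change over 16 libraries was 0.20 (SE 0.064, 95% interval 0.07 to 0.32, FDR = 0.0126), short of the threshold. That side of the threshold depended on the fit: over 11 alternatives the FDR ran from 0.00352 to 0.0784, and without SLIRP-1nM DHT replicate 3 it was 0.00406, without NS-Veh replicate 1 it was 0.00761, and without SLIRP-Veh replicate 4 it was 0.00852. The log2 fold change was 0.15 in vehicle (SE 0.086, FDR = 0.198) and 0.25 in DHT (SE 0.083, FDR = 0.0178). In DHT, leaving out SLIRP-1nM DHT replicate 3 gave 0.33 (FDR = 0.00246). The annotation lists 4 processed copies of ATF4 elsewhere in the genome, so reads shared with them make its level uncertain.

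ATF5 (chr19:50431959-50437192, plus strand), a close relative of ATF4 tied to the mitochondrial unfolded protein response, was the next factor by level. Its CPM in replicates 1 to 4 was 58.0, 76.5, 68.0 and 59.4 in NS-Veh and 74.4, 58.6, 52.3 and 49.0 in NS-1nM DHT. With SLIRP siRNA it was 44.98, 54.8, 51.1 and 63.1 in vehicle and 56.1, 47.9, 48.6 and 48.3 in DHT. The arms overlapped widely, and the log2 fold change over 16 libraries was -0.25 (SE 0.11, FDR = 0.0676). IL4I1 and NUP62 lie over ATF5 on the other strand and MIR4751 on the same strand, and the sources used here do not say whether counting used the strand.

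ATF3 (chr1:212738676-212794119, plus strand), an early stress-induced factor, had 14.5 to 30.02 CPM in NS-Veh and 20.9 to 33.2 CPM in NS-1nM DHT. The SLIRP-Veh libraries had 24.9, 53.2, 20.2 and 20.2 CPM, so that replicate 2 stood apart from the other 3, and the SLIRP-1nM DHT libraries lay between 23.5 and 32.0 CPM. Its log2 fold change was 0.21 (SE 0.19, FDR = 0.371). The RNA gene RN7SL512P lies over ATF3 on the other strand. DDIT3 (chr12:57910371-57915520, minus strand), the CHOP factor linked to cell death under lasting stress, had 13.9 to 24.0 CPM over the 8 NS libraries and 8.74 to 23.5 CPM over the 8 SLIRP siRNA libraries. Its log2 fold change was -0.38 (SE 0.21, 95% interval -0.78 to 0.03, FDR = 0.139). DDIT3 overlaps MARS, the methionyl-tRNA synthetase gene on the other strand, whose own log2 fold change was 0.28 (FDR = 0.00717). MARS is named because of this overlap, after its values were seen. With 6 to 28 counts per library, DDIT3 was read with little depth.

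ASNS (chr7:97480989-97501854, minus strand) had 134, 144, 117 and 134 CPM in replicates 1 to 4 of NS-Veh and 124, 105, 120 and 101 CPM in NS-1nM DHT. The SLIRP-Veh libraries had 149, 161, 159 and 131 CPM, and the SLIRP-1nM DHT libraries 158, 147, 146 and 160 CPM. In DHT every SLIRP siRNA library was above every NS library, while in vehicle the groups overlapped through SLIRP-Veh replicate 4. Over 16 libraries the log2 fold change was 0.32 (SE 0.080, 95% interval 0.17 to 0.48, FDR = 0.0013), and the call held in each of the 16 fits that left out a library. ASNS rose in DHT by a log2 fold change of 0.45 (SE 0.10, FDR = 0.00077), and in vehicle the value was 0.20 (SE 0.11, FDR = 0.164). The difference of these values, 0.25 (SE 0.15), had an unadjusted p of 0.1 and an FDR of 1, so a larger change in DHT than in vehicle was not shown. With replicates 1 and 2 only, the change was 0.32 (FDR = 0.0514), and with replicates 3 and 4 only it was 0.34 (FDR = 0.0178), where the 11 alternatives gave an FDR of 0.000443 to 0.0514. The annotation lists 5 processed copies of ASNS, with which reads may be shared. It also places 2 genes over ASNS, a long noncoding RNA on the same strand and a processed pseudogene on the other, which make its level uncertain.

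PCK2 (chr14:24563262-24579807, plus strand), the mitochondrial enzyme that makes phosphoenolpyruvate and a known ATF4 target, had 69.5 to 124 CPM over the NS libraries and 84.5 to 110 CPM over the SLIRP siRNA libraries. The SLIRP siRNA range lay inside the NS range. Its log2 fold change was 0.13 (SE 0.094, 95% interval -0.06 to 0.31, FDR = 0.277). NRL lies over PCK2 on the other strand.

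CHAC1 (chr15:41245160-41248710, plus strand), which breaks down glutathione and is widely used as a reporter of ATF4 activity, was barely expressed. Its counts in replicates 1 to 4 were 4, 7, 5 and 13 in NS-Veh and 10, 13, 13 and 13 in NS-1nM DHT. With SLIRP siRNA they were 8, 1, 7 and 9 in vehicle and 5, 0, 7 and 6 in DHT. In CPM the NS-1nM DHT libraries lay at 9.51 to 11.3 and the SLIRP-1nM DHT libraries at 0 to 6.80, without overlap, and the vehicle groups overlapped. The 0 in SLIRP-1nM DHT replicate 2, of 717238 counts, allows up to 4.18 CPM (3 counts), a floor for counting error only. CHAC1 did not pass the low-count filter of the comparison of siRNA arms, which asks for enough counts in 8 libraries. In the 4-group model, where the filter asks for 4, it passed mainly through NS libraries, where it was higher. Its values within a treatment are thus only a description. In DHT its log2 fold change was -1.09 (SE 0.46, 95% interval -1.99 to -0.18, FDR = 0.0634), and in vehicle -0.44 (SE 0.48, FDR = 0.524). It thus did not pass the test in either setting.

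DDIT4 (chr10:74033678-74035794, plus strand) had 134, 134, 115 and 126 CPM in replicates 1 to 4 of NS-Veh and 106, 94.1, 76.6 and 94.3 CPM in NS-1nM DHT. The SLIRP-Veh libraries had 72.2, 78.3, 74.0 and 79.8 CPM, and the SLIRP-1nM DHT libraries 69.1, 64.9, 72.8 and 61.1 CPM. SLIRP siRNA libraries were below the NS libraries of the same treatment without exception, and the 8 against 8 ranges overlapped through NS-1nM DHT replicate 3 alone. DDIT4 fell by 0.59 on the log2 scale over 16 libraries (SE 0.11, FDR = 2.95e-05), in every fit that left out a library. It fell by 0.72 in vehicle (SE 0.12, FDR = 1.02e-05) and by 0.47 in DHT (SE 0.12, FDR = 0.00295). The call in DHT was lost with DESeq2 (FDR = 0.0127) and without NS-1nM DHT replicates 1 (FDR = 0.0183), 2 (0.0122) or 4 (0.012) or SLIRP-1nM DHT replicate 4 (0.0229), each with the same direction, and the 7 alternatives gave an FDR of 0.00232 to 0.0127. The difference between the falls in DHT and vehicle was 0.25 (SE 0.17, FDR = 1).

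The other brakes on mTORC1 and AKT signalling did not pass the test. SESN2 (chr1:28586029-28609002, plus strand), a leucine-sensing sestrin, had 21.8 to 44.04 CPM over the NS libraries and 18.3 to 32.0 CPM over the SLIRP siRNA libraries, with a log2 fold change of -0.12 (SE 0.16, FDR = 0.59). TRIB3 (chr20:343479-378203, plus strand), a pseudokinase that binds ATF4 and AKT, had 78.1, 69.5, 60.1 and 57.8 CPM in NS-Veh and 68.2, 41.6, 43.5 and 44.6 CPM in NS-1nM DHT. With SLIRP siRNA it had 49.7, 43.8, 71.3 and 49.1 CPM in vehicle and 48.3, 39.5, 47.6 and 55.5 CPM in DHT. The ranges overlapped in both treatments, and its log2 fold change was -0.14 (SE 0.13, FDR = 0.425). The sign of SESN2 and TRIB3 was positive with replicates 3 and 4 only.

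**Figure D2:**
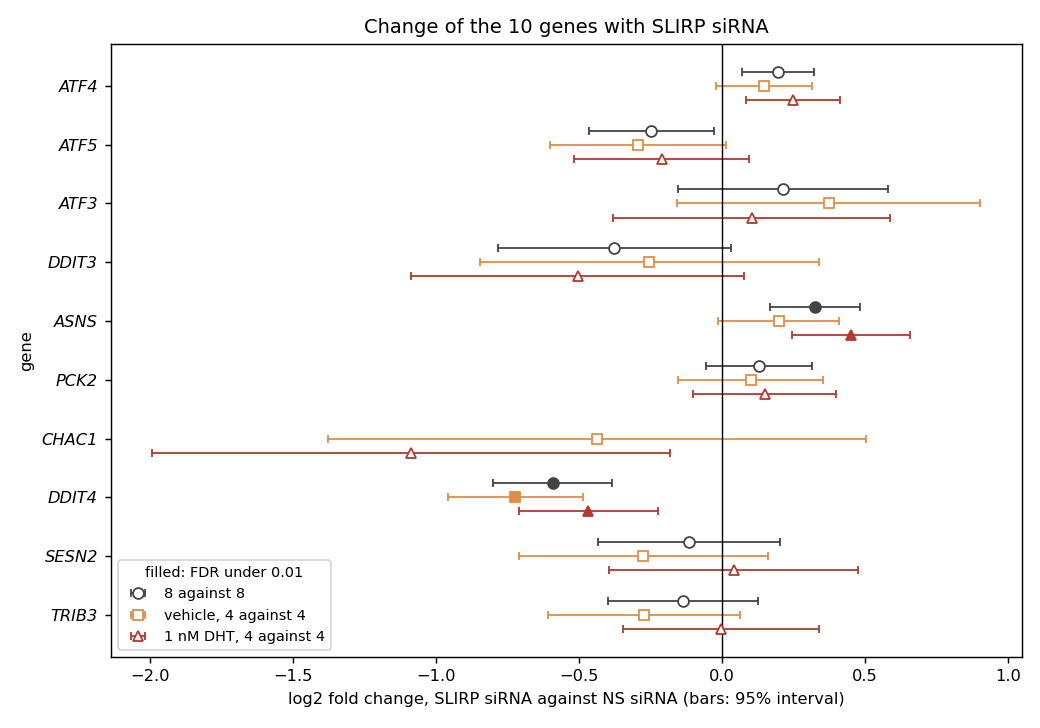
Log2 fold change of the 10 genes, SLIRP siRNA against NS siRNA, over 16 libraries and within vehicle and DHT, with 95% intervals; filled markers passed an FDR of 0.01, and CHAC1 has no value over 16 libraries. DDIT4 is filled in all 3 comparisons (-0.59, -0.72 and -0.47), ASNS over 16 libraries and in DHT (0.32 and 0.45), and the other 8 genes in none.

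Levels of different genes are compared only per length, as CPM divided by the length in kilobases of the transcript the annotation marks as canonical (for DDIT4 the longest). Over the 8 NS libraries ATF4 was highest at 259 ± 16.4 CPM per kilobase (SD, n = 8), above every other gene of the set in every library. DDIT4 followed at 63.0 ± 12.02, ASNS at 51.3 ± 6.20, PCK2 at 41.1 ± 7.82 and ATF5 at 30.9 ± 4.98 CPM per kilobase. TRIB3 stood at 24.6 ± 5.78, DDIT3 at 19.9 ± 4.41, ATF3 at 12.6 ± 3.25, SESN2 at 8.21 ± 2.31 and CHAC1 at 6.52 ± 2.36 CPM per kilobase. From DDIT4 down, each gene overlapped its neighbour in this order. The order of DDIT4 and ASNS was the other way round with SLIRP siRNA, where DDIT4 had 43.5 ± 2.03 and ASNS 63.0 ± 5.66 CPM per kilobase in vehicle (SD, n = 4), with ranges that did not overlap.

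The depth set how far each gene could be read. The coefficient of variation between libraries of a group was 7.71% for ATF4, where counting alone gives 5.33%, and 8.66% for DDIT4, where counting gives 11.3%. ASNS had 8.30% against 9.06%, and ATF5 14.2% against 14.1%. The replicates of ASNS and ATF5 thus scattered about as much as counting alone gives, and those of DDIT4 less. CHAC1, at a mean of 7.56 counts per library, had 53.8% against 49.3%, and ATF3 33.4% against 21.2%, the widest margin over counting in the set.

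**Figure D3:**
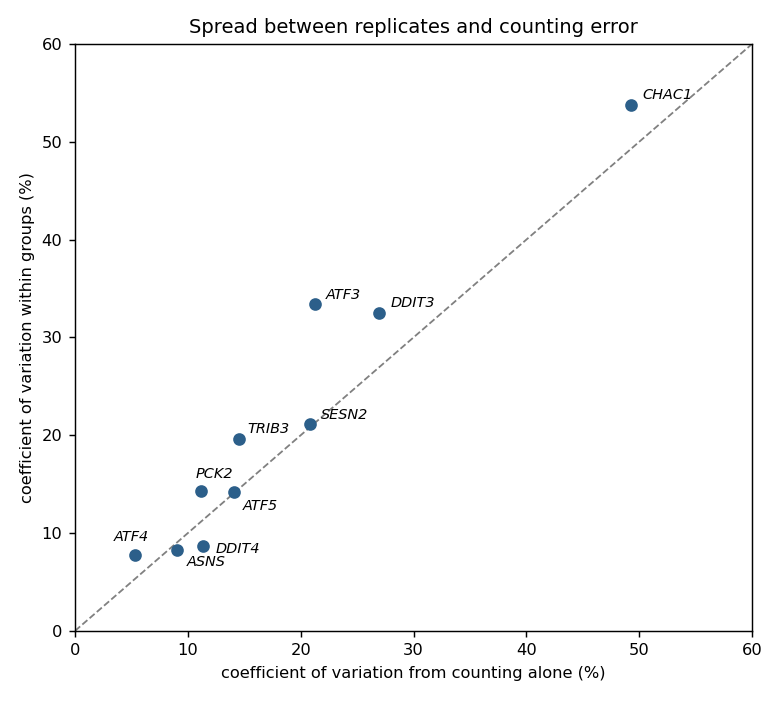
Coefficient of variation within groups (vertical, percent, pooled over the 4 groups) against the value counting alone would give (horizontal, percent) for the 10 genes; the dashed line marks equality. ASNS and DDIT4 lie below the line, and ATF3 at 33.4% against 21.2% lies farthest above it in proportion.

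DHT was compared with vehicle within each siRNA. In NS cells 0 of the 10 genes passed the test, beside 1.31% of 10367 genes tested, and 3 had an unadjusted p under 0.05, beside 14.3% of all genes tested. The log2 fold changes ran from -0.44 to 0.35. DDIT4, singled out after its values were seen, had the lowest FDR of the set, at -0.44 (SE 0.11, FDR = 0.0255). It was the 1 gene of the set whose NS-1nM DHT libraries, at 76.6 to 106 CPM, all lay below NS-Veh, at 115 to 134 CPM, beside 8.77% of genes tested whose groups did not overlap. These NS-Veh libraries are also the controls of the siRNA comparison in vehicle. In SLIRP siRNA cells 0 of the 10 passed, beside 1.17% of 10684 genes, 0 had an unadjusted p under 0.05, beside 15.6% of genes, and the values ran from -0.31 to 0.04. DDIT4 had -0.18 there (SE 0.13, FDR = 0.545). The difference in DHT response between the siRNAs was called for 0 of the 10 and for 0 of 10684 genes, or 0%, with 388 genes (3.63%) and 0 of the 10 at an unadjusted p under 0.05.

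Further genes of the pathway came from 10 lists of 135 genes in all, of which 120 could be tested over 16 libraries. With SLIRP siRNA 27 were higher and 29 lower, 46.7% called beside 35.2% of all genes tested, with a median log2 fold change of -0.02. Of all genes tested, 17.8% were higher and 17.4% lower, and these shares stand beside the counts of each list below. A list whose counts lie near them is not set apart from all genes. The lists were chosen with earlier results of these data known. A share above that of all genes, here or within a treatment, is thus only a description. Genes of amino acid synthesis and uptake moved in both directions. Of the 29 list genes named, 21 overlap another annotated gene and are uncertain where reads were shared; PSAT1, ALDH18A1, SLC7A1, TARS, STC2, JUN, JUND and BTG2 overlap none. PSAT1, the aminotransferase of serine synthesis, had 309 ± 71.6 CPM in NS-Veh and 57.4 ± 15.1 CPM in SLIRP-Veh, and 269 ± 26.4 and 64.5 ± 5.80 CPM in the same order in DHT (SD, n = 4). It fell by 2.18 on the log2 scale (SE 0.11, FDR = 4.55e-16), with no overlap between the arms. ALDH18A1, which starts proline synthesis, rose by 0.53 (SE 0.089, FDR = 1.05e-05). The other 9 genes of this list that were tested, for serine, one-carbon, proline and alanine enzymes, were not called, and its median was 0.11.

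Of 10 amino acid transporter genes tested, 4 rose and 2 fell. SLC7A11, which brings in cystine for glutathione and is a standard ATF4 target, had 293 ± 43.8 CPM in NS-Veh, 96.3 ± 12.1 CPM in SLIRP-Veh, 240 ± 31.8 CPM in NS-1nM DHT and 86.5 ± 17.1 CPM in SLIRP-1nM DHT. It fell by 1.53 (SE 0.10, FDR = 3.28e-13), and SLC38A2, a carrier of small neutral amino acids, fell by 0.52 (SE 0.072, FDR = 5e-07). SLC7A1, the carrier of arginine and lysine, rose by 0.74 (SE 0.081, FDR = 8.7e-09). These 3 genes did not overlap between the arms. Antisense genes lie over SLC7A11 and SLC38A2 and cannot be told apart from them here.

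The list of aminoacyl-tRNA synthetases, which charge tRNAs, also holds the tRNA export factor XPOT, and of its 13 genes 4 rose and 1 fell, with a median of 0.09. TARS rose by 0.64 (SE 0.066, FDR = 2.22e-09) with no overlap between the arms, YARS by 0.34 (SE 0.075, FDR = 0.000444) and GARS by 0.30 (SE 0.086, FDR = 0.00503). The call of GARS was lost without NS-1nM DHT replicates 3 or 4, SLIRP-1nM DHT replicates 1 or 2 or SLIRP-Veh replicate 2, with an FDR of up to 0.0153. The list's 5 calls became 2 without NS-1nM DHT replicate 3 and 3 without NS-1nM DHT replicate 4, SLIRP-1nM DHT replicates 1 or 2 or SLIRP-Veh replicate 1. Among 12 other stress-induced targets tested, 3 rose and 3 fell. SQSTM1, the autophagy adaptor p62, fell by 0.86 (SE 0.076, FDR = 1.17e-10) and ADM2, a secreted peptide gene, by 0.79 (SE 0.13, FDR = 5.64e-06), while STC2, a secreted glycoprotein gene, rose by 0.62 (SE 0.12, FDR = 5.52e-05).

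Upstream, 15 genes for eIF2alpha kinases and their regulators were tested, of which 3 rose and 4 fell. DNAJC3, an inhibitor of the kinases PERK and PKR, fell by 0.65 (SE 0.085, FDR = 1.74e-07), and IMPACT, an inhibitor of the kinase GCN2, fell by 0.63 (SE 0.093, FDR = 1.62e-06). EIF2B4, a subunit of the exchange factor on which phosphorylated eIF2alpha acts, rose by 0.54 (SE 0.14, FDR = 0.00237), a call lost without SLIRP-Veh replicate 1 (0.42, FDR = 0.0138). Among 9 genes of mitochondrial stress signalling 2 rose and 1 fell. LRPPRC, the partner that SLIRP binds in mitochondria, rose by 0.56 (SE 0.071, FDR = 1.3e-07). HSPE1, the mitochondrial co-chaperonin, rose by 0.66 (SE 0.096, FDR = 1.28e-06), though it overlaps HSPD1 and a readthrough gene. YME1L1, a protease of the inner membrane, fell by 0.25 (FDR = 0.00729), a call lost in 13 of the 16 fits that left out a library.

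Among 14 genes for bZIP partners and paralogs, 0 rose and 4 fell, with a median of -0.23. ATF6, the endoplasmic reticulum stress sensor, fell by 0.81 (SE 0.090, FDR = 1.05e-08), JUND by 0.64 (SE 0.093, FDR = 1.42e-06) and JUN by 0.31 (SE 0.098, FDR = 0.00964). JUN lost its call in 12 of the 16 fits that left out a library, and the list's 4 calls became 2 without NS-Veh replicate 4. The 16 genes of the ATF6 and XBP1 branches of the unfolded protein response gave 1 rise and 6 falls. HERPUD1, which takes part in degradation at the endoplasmic reticulum, fell by 1.13 (SE 0.11, FDR = 1.06e-09), the chaperone gene CALR by 0.87 (SE 0.064, FDR = 2.01e-12) and the disulfide isomerase gene PDIA6 by 0.49 (SE 0.063, FDR = 1.59e-07). The arms did not overlap for these 3 genes.

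Paralogs and sensors tied to SESN2, DDIT4 and TRIB3 gave 1 rise and 6 falls among 10 tested, with a median of -0.45. RHEB, the small GTPase that activates mTORC1, rose by 1.18 (SE 0.12, FDR = 3.02e-09). SESN1, the sestrin that p53 controls, fell by 0.66 (SE 0.090, FDR = 3.99e-07), and MTOR, the kinase itself, by 0.55 (SE 0.098, FDR = 2.73e-05). Of 10 targets of p53 tested, listed since p53 also controls SESN1 and SESN2, 8 rose and 1 fell, with a median of 0.54. CDKN1A, the p21 cell cycle inhibitor, rose by 1.07 (SE 0.11, FDR = 1.93e-09), BTG2 by 0.64 (SE 0.097, FDR = 2.34e-06) and MDM2, the ligase that degrades p53, by 0.52 (SE 0.069, FDR = 2.72e-07). SESN1 fell while these 3 genes rose.

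Counts of calls in several lists moved by over 1.5 times when fewer libraries were used. With replicates 1 and 2 only, calls went from 9 to 3 for p53 targets, from 7 to 4 for the ATF6 and XBP1 branches, from 7 to 4 for eIF2alpha kinases and regulators, from 6 to 3 for other stress-induced targets and from 5 to 1 for the synthetase list. With replicates 3 and 4 only, they went from 7 to 4 for eIF2alpha kinases and regulators, from 4 to 2 for bZIP partners and from 5 to 3 for the synthetase list, which also had 3 with limma on the normalized score.

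**Figure D4:**
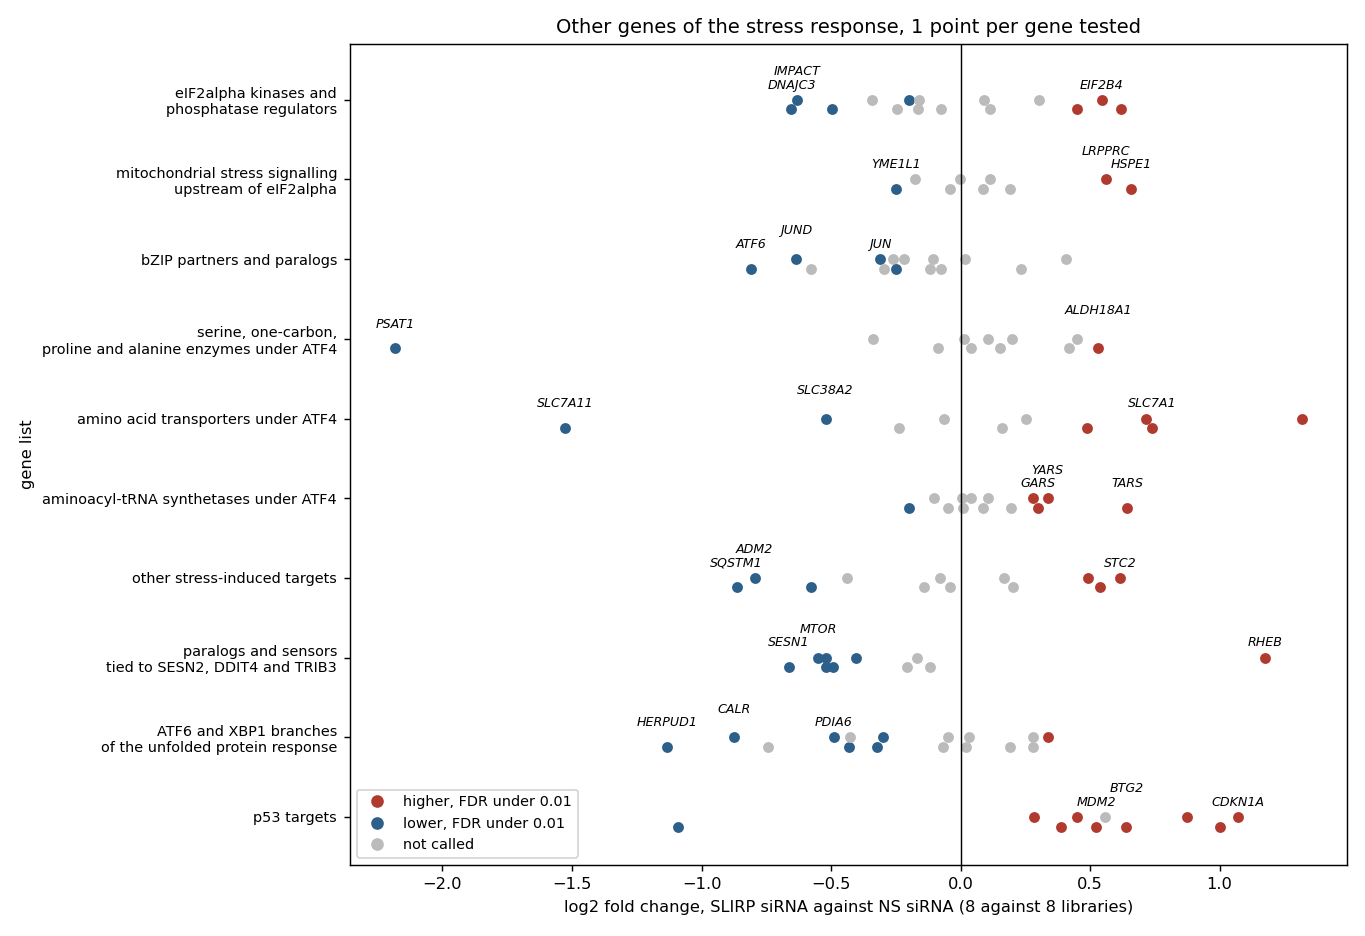
Log2 fold change, SLIRP siRNA against NS siRNA over 16 libraries, of each of the 120 list genes tested, 1 row per list; red points passed an FDR of 0.01 as higher, blue points as lower, and grey points did not pass. PSAT1 at -2.18 and SLC7A11 at -1.53 lie farthest to the left, while the p53 targets lie to the right with 8 higher and 1 lower.

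Within vehicle 18 of 121 list genes tested were higher and 22 lower (33.1%, beside 21.7% of all genes), and within DHT 21 were higher and 24 lower (37.2%, beside 24.4%). PSAT1 was at -2.28 in vehicle and -2.05 in DHT, and SLC7A11 at -1.56 and -1.49. ATF6 was at -0.73 in vehicle and -0.89 in DHT, and CALR at -0.81 and -0.94. Each of these passed the test in both treatments. DHT against vehicle called 2 list genes in NS cells (1.65%, beside 1.31% of all genes), TXNIP and HSPA5, both lower (-0.48 with FDR = 2.08e-04 and -0.33 with FDR = 0.00151), and 1 in SLIRP siRNA cells (0.826%, beside 1.17%), GDF15, higher (0.64, FDR = 0.00108). These 3 genes are named because the counts are small and were chosen after their values were seen. The difference in DHT response called 0 of the 121.

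For ATF4 and ASNS, the genes with the most similar profile were ranked by the root mean square difference of log2 CPM over the 16 libraries, each profile centred on its own mean, among the 2697 genes that averaged 100 counts or more. AP3M1, DCAF7 and CHD8 were nearest to ATF4, at 0.073, 0.081 and 0.088, where the profile of ATF4 had an SD of 0.145. MORF4L1, SMU1 and MATR3 were nearest to ASNS, at 0.102, 0.107 and 0.119, where the SD was 0.2103. ATF4 ranked 13 among the neighbours of ASNS and ASNS 55 among those of ATF4, at a distance of 0.131. This distance is not far below the SD of the ATF4 profile, so the ranks are no sign of a close likeness. The other genes of the set averaged fewer than 100 counts and were not ranked. These distances are a description over libraries that share the siRNA groups.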

How the data were processed

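RNA from LNCaP cells in 4 groups of 4 libraries was sequenced and mapped to hg19 by the authors; the submitters' processing notes name CASAVA and RSEM, with no versions, and the annotation and strand setting are not given in the sources used here. The authors deposited estimated counts for 20531 entries (29 without a symbol), rounded to whole numbers, and a normalized score, the estimated counts scaled by the upper quartile of the library, which served only for an alternative.

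The estimated counts were analysed in R 4.3.3 with edgeR 4.0.16 (TMM, filterByExpr, glmQLFit and glmQLFTest, Benjamini-Hochberg over all genes tested, FDR 0.01). All 16 libraries entered the comparison of the siRNAs, with no covariate. The 8 NS libraries gave the DHT response of control cells, and the rest were contrasts of a 4-group model over 16 libraries. CPM used TMM-scaled library sizes, and log2 CPM a prior count of 2. At the lowest total, 436353 counts, 3 counts are 6.88 CPM. Libraries of a group differed by more than sampling noise. Replicate numbers come from the labels. The study's methods give 4 replicates, as 2 biological replicates collected from 2 experiments, without tying them to numbers. The numbers did not pair the samples by the correlation of their deviations. The fits reported had no term for the experiment and treat the 4 libraries of a group as independent. Their p-values thus measure the spread between these libraries, not between independent experiments.

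The genes, the lists and their order were chosen with earlier results of these data known. From each list the 3 genes with the largest absolute log2 fold change over 16 libraries were named, among those with FDR under 0.01 and a mean count of at least 30. The ATF4 and ASNS neighbours were the 3 nearest genes. Coordinates come from GENCODE on hg19, and promoters from RefSeq on GRCh38.p14. Alternatives were DESeq2 1.42.0, upper-quartile normalization, limma 3.58.1 on log2 of the normalized score plus 1 or plus 0.1, no filter or at least 10 counts in every library, an FDR of 0.05, the replicate block, treatment as a covariate, fits of the compared groups alone, the NS contrast from the 4-group model, subsets of replicates and leaving out each library. Figures used matplotlib 3.10.9.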

Additional observations from a re-analysis of the deposited data

Results flagged for a closer look

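In each of the 40 groups of 4 libraries (10 genes by 4 groups), the library farthest from the rest was tested by the share of the range taken by its gap on log2 CPM (Dixon's 95% critical value). Chance marks about 1 group in 20, or 2 of 40, and 3 were found. ATF5 in SLIRP-1nM DHT replicate 1 stood at 56.1 CPM (43 counts), and the other 3 libraries of the group at 47.9 to 48.6 CPM. TRIB3 in NS-1nM DHT replicate 1 stood at 68.2 CPM (65 counts), and the others at 41.6 to 44.6 CPM. CHAC1 in SLIRP-1nM DHT replicate 2 stood at 0 CPM, with 0 counts, and the others at 4.83 to 6.80 CPM. The scale decides some of these. On CPM itself, added after seeing the data, the gap of CHAC1 took 0.71 of the range and no longer passed, and ATF3 in SLIRP-Veh replicate 2, at 53.2 CPM against 20.2 to 24.9 CPM, did, at 0.858.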

How the results depend on the processing

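Of the fold changes of the 10 genes under alternatives other than leaving out a library, 220 kept their direction and side of the threshold, 9 newly passed it, 3 no longer did and 6 changed sign. Over 16 libraries, 1 gene of the set was called with replicates 1 and 2 only and 1 with replicates 3 and 4 only (DDIT4, lower), where the report gives 2. With replicates 3 and 4 only, TRIB3 had 0.093 and SESN2 0.18. In DHT, DESeq2 called 1 gene (ASNS), where the report gives 2, and leaving out a library gave 1 to 3. TRIB3 in DHT, at -0.00379, was 0.0023 with DESeq2, 0.0097 with no filter, 0.0069 with at least 10 counts in every library and 0.0037 with only the groups compared, and -0.079 to 0.17 without single libraries (0.17 without NS-1nM DHT replicate 1). SESN2 in DHT ran from -0.14 without SLIRP-1nM DHT replicate 3 to 0.15 without NS-1nM DHT replicate 2. For DHT in NS cells, 1 gene (DDIT4) was called at an FDR of 0.05, where the report gives 0. The cause of these shifts was not tested.

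The replicate block, with the number as a term, called 1 gene for DHT in NS cells (DDIT4, -0.47, FDR = 0.0037), and 3 genes over 16 libraries (ATF4 newly, FDR = 0.00956), 1 in vehicle, 3 in DHT (ATF4 newly, FDR = 0.00648) and 0 in the other DHT comparisons. Mean correlations of same-numbered libraries were 0.0287 to 0.137, so the numbers are not taken as pairs, and in no pair of groups did every library correlate best with its own number (3 of 4 did between NS-Veh and NS-1nM DHT). ATF4 over 16 libraries also passed with DESeq2 (FDR = 0.00352), at least 10 counts in every library (0.00632) and treatment as a covariate (0.00576). Of list counts, 99 stayed within 1.5 times and 11 moved, and of the named list genes' fold changes 301 kept their call and 18 lost it, none changing sign. CHAC1 over 16 libraries without the filter had -0.78 (FDR = 0.073), and its fits by limma or on fewer libraries ran from -1.99 to -0.25, all with an FDR above 0.01. Depth limits CHAC1 (unfiltered), DDIT3 and ATF3 most, with SEs of 0.33, 0.21 and 0.19 on the log2 scale, beside 0.080 for ASNS.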
